A study of Mus musculus with 19 samples.

Results

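The CCR4-NOT complex is the main cytoplasmic deadenylase of animal cells, and its 10 annotated subunits examined here (Cnot1, Cnot2, Cnot3, Cnot6, Cnot6l, Cnot7, Cnot8, Cnot9, Cnot10 and Cnot11) were chosen by gene name from the 25891 genes measured. All 10 were found in the table. Cnot1 is the scaffold on which the other subunits assemble. Cnot7 and its paralog Cnot8 are CAF1-type nucleases that use the same docking site and so replace each other, and the CCR4-type nucleases Cnot6 and Cnot6l do likewise on top of them. In the oocyte, which is transcriptionally silent during maturation, shortening and lengthening of poly(A) tails decide which stored maternal mRNAs are translated and which are cleared, and CPEB proteins bind cytoplasmic polyadenylation elements (CPEs) in 3′UTRs to direct both processes.

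RNA-seq was made from mouse MII oocytes and 2cell embryos of CPEB3+/- females (labelled Het) and of females with an oocyte-specific CPEB3 knockout (CPEB3-/-, labelled KO). There were 5 CPEB3+/- and 5 CPEB3-/- libraries of MII oocytes, and 5 CPEB3+/- and 4 CPEB3-/- libraries of 2cell embryos. The females were BL6 mice aged 6 to 10 weeks and received 5 IU PMSG and, 48 h later, 5 IU hCG. MII oocytes were ovulated in vivo, and 2cell embryos were collected 37 h after hCG. The study's methods describe culture of zygotes of mated females, without saying whether the sequenced 2cell embryos were grown that way. Per the study's methods, each library was made from a pool of 5 cells, Cre was driven by the ZP3 promoter, which is active in growing oocytes, and the control genotype described there also carries ZP3-Cre with a single floxed allele. That genotype is named wild type there, and whether it is that of the females labelled Het is not stated. The study describes matings with wild-type males, without naming the males for these libraries. The sources used here do not say which litters or pools the lettered libraries came from, so that p-values measure the spread between libraries, which may in part be technical.

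The values were deposited as FPKM, and depth estimated from their steps was 17.1 to 23.4 M fragments per library (median 19.7 M). All 10 oocyte markers had a mean of at least 0.1 FPKM in every group. The 8 markers of the 2cell stage summed to 38.1 to 45.6 FPKM in CPEB3+/- and 46.2 to 61.4 FPKM in CPEB3-/- MII oocytes, without overlap, and to between 562 and 963 FPKM in 2cell embryos. Of 10 cumulus and granulosa cell markers 7 were in the table, and they summed to at most 0.612 FPKM in any library. The Cpeb3 gene itself was not lower in the libraries labelled CPEB3-/-: its mean went from 0.0755 FPKM (CPEB3+/-) to 0.162 FPKM (CPEB3-/-) at MII and from 0.0303 to 0.0554 FPKM at the 2cell stage. A value over the whole gene can hold exons outside the deleted part, which the sources used here do not give, so it does not check the labels, and CPEB3-/- below means the libraries so labelled. Over all genes, 590 were called higher and 767 lower in CPEB3-/- MII oocytes of 10514 tested, and 1198 higher and 1340 lower in CPEB3-/- 2cell embryos of 14050 tested. These splits depended on the scaling of the libraries. With values as deposited they were 786 higher and 591 lower in MII oocytes, and after scaling to equal summed FPKM (sum scaling) they were 1111 and 478 in MII oocytes and 2422 and 573 in 2cell embryos. The last scaling moved the median log2 fold change of all genes from 0.01 to 0.15 in MII oocytes and from -0.0039 to 0.26 in 2cell embryos.

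Because CPEB3 belongs to the family that reads CPEs, the annotated 3′UTRs of the subunits were searched on the transcript strand for UUUUAU and UUUUAAU (CPE) and for AAUAAA and AUUAAA (polyadenylation signal, PAS). Both forms of the CPE can share their last letters with the start of a PAS. Of 16987 genes with an annotated 3′UTR, 58.9% held at least 1 CPE, and pooled over them there were 1.3 CPEs per kb. Cnot7 had the densest 3′UTR of the 10 subunits, with 9 CPEs in 1447 nt, or 6.22 per kb, against a median of 1 CPE among the 2665 genes with a 3′UTR within 25% of that length. All 9 of the Cnot7 elements were UUUUAU. In order along the 3′UTR they lay 134, 129, 95, 478, 122, 59, 54, 9 and 303 nt before the next PAS. The 8 pairs of a CPE and a PAS within 100 nt downstream thus came only from the CPEs at 95, 59, 54 and 9 nt. Those at positions 20 and 25, and at 839 and 844, overlap each other by a base and were each counted. Its paralog Cnot8 had 1 CPE in 1006 nt, which lay 14 nt before the last PAS. Cnot6l had 16 CPEs in its 6847 nt (2.34 per kb, median of 9 for 3′UTRs of like length), and Cnot6 had 9 in 3690 nt. Cnot3 had 1 in 283 nt, Cnot1, Cnot2 and Cnot9 had 2 each, Cnot11 had 3, and Cnot10 had none of either motif in 484 nt. A motif match is a description of the annotated sequence, and binding was not measured.

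The CPE nearest upstream of the last PAS is given here for both pairs of nucleases, because these are the subunits whose levels are compared as paralogs. These CPEs lie 303 nt (Cnot7), 14 nt (Cnot8), 1766 nt (Cnot6l) and 717 nt (Cnot6) before the last PAS. For Cnot3 its only CPE is given, which lies after its PAS. Each window is 30 nt of GENCODE transcript sequence (GRCm38), written 5′ to 3′ on the transcript strand with the CPE in capitals.
Cnot7, chr8:40492853-40492882, minus strand: cuuugcaaucuaUUUUAUauauauugacaa
Cnot8, chr11:58118545-58118574, plus strand: uauuauuuauguUUUUAAUuuuguaaaaua
Cnot6l, chr5:96072106-96072135, minus strand: uuaaauguugacUUUUAUggugcagccuau
Cnot6, chr11:49672226-49672255, minus strand: uuuuguuuguacUUUUAUuugauuuggugu
Cnot3, chr7:3661079-3661108, plus strand: augaauaaauagUUUUAUaugacggcuggc

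The first comparison asked how the subunit mRNAs differed between CPEB3-/- and CPEB3+/- MII oocytes. Of the 9 subunits that passed the filter on low values, 1 was called lower (Cnot7), 0 were called higher and 8 were not called, calls being made at an adjusted p below 0.05 with a change of over 1.5-fold (limma on log2(FPKM + 0.1), Benjamini-Hochberg over all genes). Without adjustment, 0 were higher and 3 lower at a limma p under 0.05, beside 18.3% and 18.8% of all genes tested. In that comparison 12.9% of all genes tested were called, 7.3% lower and 5.61% higher. At an unadjusted exact permutation p under 0.05, 2 of the 10 subunits were lower and 3 were higher in mean FPKM as deposited, beside 14.6% and 20.8% of the 10514 genes of the fit. After scaling, Cnot8 (lower, exact permutation p = 0.0397) took the place of Cnot3 (higher, p = 0.0556) among these, and the shares over all genes were 17.7% lower and 17.4% higher. The median log2 fold change of the 9 tested subunits was -0.13, beside 0.01 over all genes.

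Cnot7 (chr8:40492540-40515847, minus strand) had the largest fall of the complex. In the CPEB3+/- MII libraries A to E it was at 24.5, 17.6, 26.9, 20.7 and 14.4 FPKM, and in the CPEB3-/- libraries A to E at 6.00, 7.61, 10.9, 12.9 and 13.8 FPKM. No CPEB3-/- library reached the lowest CPEB3+/- library, although CPEB3-/- library E came close to CPEB3+/- library E. The means were 20.8 ± 5.07 and 10.2 ± 3.35 FPKM (SD, n = 5 each), a fitted 2.21-fold lower level (log2 fold change -1.15, SE 0.29, adjusted p = 0.0193 by limma). The call was lost with the library letter as a block, as given below. The exact permutation p was 0.00794, the smallest that 5 against 5 libraries allow. The study selected Cnot7 on these same samples, so that its fall is not independent evidence of a direction.

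Cnot8, the alternative CAF1-type nuclease, was at 5.59, 6.76, 5.14, 6.82 and 5.73 FPKM in the CPEB3+/- libraries A to E and at 4.80, 4.94, 5.30, 5.25 and 6.29 FPKM in the CPEB3-/- libraries. The groups overlapped, and the log2 fold change of -0.27 (SE 0.11) did not pass the test (limma adjusted p = 0.1). Because both paralogs are read in the same library, their ratio does not depend on how libraries are scaled. It can still hold a trend with GC content, which differs between these paralogs and was not removed from the ratio. The log2 ratio of Cnot7 to Cnot8 was 2.11, 1.37, 2.37, 1.59 and 1.31 in the CPEB3+/- MII libraries and 0.32, 0.61, 1.025, 1.28 and 1.12 in the CPEB3-/- libraries, with no overlap. The mean fell from 1.75 ± 0.47 to 0.87 ± 0.40 (SD, n = 5 each), or 1.84-fold (two-sided exact permutation p = 0.00794, adjusted p = 0.0317 over 4 ratio tests). Leaving out any of the 10 libraries kept the direction, with differences between -0.99 and -0.72 on the log2 scale. The adjusted p was then 0.0635 in each case, the smallest that 9 libraries and 4 tests allow.

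Of the CCR4-type nucleases, Cnot6l (chr5:96070333-96164171, minus strand), the more abundant of the pair per transcript length, was at 5.82, 5.06, 4.73, 4.66 and 4.36 FPKM in CPEB3+/- MII libraries A to E. In the CPEB3-/- libraries it was at 3.76, 3.005, 3.69, 3.80 and 3.84 FPKM. Again the 2 genotypes did not overlap, with CPEB3-/- the lower. The log2 fold change was -0.53 (SE 0.12, 1.44-fold lower, limma adjusted p = 0.0127), which passed the p threshold but not the 1.5-fold threshold. Without CPEB3+/- library E it passed both (-0.60, limma adjusted p = 0.0116), and with the GC trend removed, as given below, it passed neither. The exact permutation p was 0.00794. Cnot6 overlapped between the groups, at 0.335 to 0.584 FPKM against 0.347 to 0.523 FPKM (log2 fold change -0.13, SE 0.17, limma adjusted p = 0.614). The log2 ratio of Cnot6l to Cnot6 averaged 3.26 ± 0.43 in CPEB3+/- and 2.87 ± 0.32 in CPEB3-/- MII oocytes (SD, n = 5 each), a difference that did not pass the test (exact permutation p = 0.159, adjusted p = 0.212).

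Among the subunits without nuclease activity none was called in MII oocytes. The scaffold Cnot1 averaged 0.172 ± 0.0189 FPKM in controls and 0.171 ± 0.0269 FPKM in CPEB3-/- oocytes (SD, n = 5 each), with a log2 fold change of -0.07 (SE 0.11). Cnot2, which together with Cnot3 forms the NOT module that contacts repressors on the target mRNA, was at 0.546, 0.560, 0.569, 0.566 and 0.457 FPKM in CPEB3+/- libraries A to E and at 0.749, 0.697, 0.630, 0.635 and 0.900 FPKM in CPEB3-/- libraries. Those groups did not overlap and the exact permutation p was 0.00794, but the log2 fold change of 0.27 (SE 0.13) did not pass the test over all genes (limma adjusted p = 0.149). Cnot3 was at 7.85, 8.501, 6.58, 7.52 and 8.44 FPKM in CPEB3+/- libraries and at 10.9, 9.32, 9.28, 8.41 and 8.09 FPKM in CPEB3-/- libraries, which overlapped (log2 fold change 0.14, SE 0.08, limma adjusted p = 0.227). Cnot9, the CAF40 subunit that binds peptides of mRNA-specific repressors, averaged 7.10 ± 1.86 and 7.83 ± 0.83 FPKM. Cnot11, which with Cnot10 forms a further module on the scaffold, averaged 3.06 ± 0.63 and 2.74 ± 0.27 FPKM, and neither Cnot9 nor Cnot11 passed the test (limma adjusted p = 0.711 and 0.234). Cnot10 did not reach 0.1 FPKM in 5 libraries and was left out of the fit. It averaged 0.0723 ± 0.020 FPKM in control and 0.114 ± 0.0253 FPKM in CPEB3-/- oocytes (SD, n = 5 each), the groups overlapped, and the exact permutation p was 0.0317 with no adjustment.

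**Figure D1:**
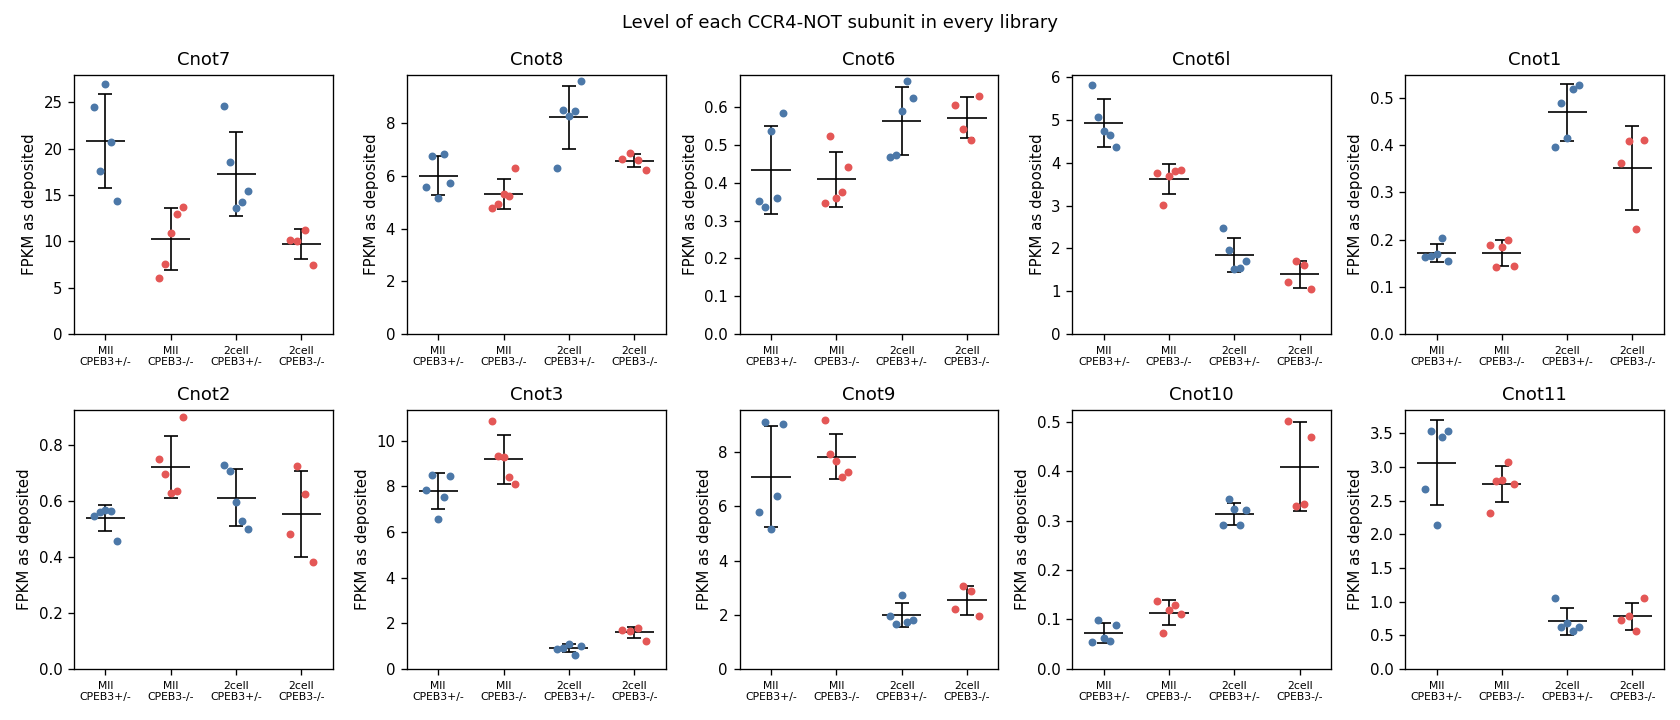
Level of each of the 10 subunits as deposited FPKM (vertical axis, starting at 0, a separate scale per gene) in every library of the 4 groups (blue, CPEB3+/-; red, CPEB3-/-), with the mean and SD in black. Cnot7 lies lower in the libraries labelled CPEB3-/- at both stages without overlap, while Cnot3, Cnot6l, Cnot9 and Cnot11 differ mainly between the stages.

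In 2cell embryos the same comparison was made with 5 CPEB3+/- and 4 CPEB3-/- libraries. All 10 subunits passed the filter, of which 1 was called lower (Cnot7), 1 higher (Cnot3) and 8 not. Of all genes tested, 18.1% were called, 9.54% lower and 8.53% higher. The smallest exact permutation p that 5 against 4 libraries allow is 0.0159, and it was reached by the same 2 subunits. At an unadjusted exact p under 0.05, 31.8% of all genes passed as deposited and 32.1% after scaling. The median log2 fold change was -0.10 over the 10 subunits and -0.0039 over all genes.

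Cnot7 was at 24.6, 18.6, 13.6, 14.3 and 15.4 FPKM in CPEB3+/- 2cell libraries A to E and at 10.1, 10.0, 11.3 and 7.41 FPKM in CPEB3-/- libraries A to D. Every CPEB3-/- library was below every CPEB3+/- library. The means were 17.3 ± 4.53 (SD, n = 5) and 9.71 ± 1.63 FPKM (SD, n = 4), 1.81-fold lower (log2 fold change -0.85, SE 0.22, adjusted p = 0.0224 by limma). The call was lost without CPEB3-/- library D (-0.72, adjusted p = 0.0646) and with sum scaling (-0.515, adjusted p = 0.0947), where the change relative to the median of all genes was -0.78. The fall in 2cell embryos did not differ from that in MII oocytes by the test of the difference (0.32 on the log2 scale, SE 0.38, limma adjusted p = 0.673). Cnot8 was at 6.31, 8.49, 8.29, 8.45 and 9.59 FPKM in CPEB3+/- and at 6.65, 6.86, 6.59 and 6.23 FPKM in CPEB3-/- 2cell libraries. Only CPEB3+/- library A overlapped the CPEB3-/- range, and the log2 fold change of -0.35 (SE 0.13) missed the threshold (limma adjusted p = 0.0776).

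The log2 ratio of Cnot7 to Cnot8 was 1.95, 1.12, 0.70, 0.75 and 0.68 in CPEB3+/- 2cell libraries and 0.60, 0.54, 0.76 and 0.25 in CPEB3-/- libraries. These groups overlapped, and the difference of -0.50 did not pass the test (exact permutation p = 0.0635, adjusted p = 0.127). Without CPEB3+/- library A it was -0.28. Cnot6l was at 2.46, 1.96, 1.52, 1.55 and 1.71 FPKM in CPEB3+/- and at 1.20, 1.70, 1.62 and 1.06 FPKM in CPEB3-/- 2cell libraries, overlapping, with a log2 fold change of -0.42 (SE 0.21, limma adjusted p = 0.196). Cnot6 had a log2 fold change of -0.01 (SE 0.15) and 0.469 to 0.668 FPKM over the 9 libraries. The log2 ratio of Cnot6l to Cnot6 averaged 1.54 ± 0.45 (SD, n = 5) in CPEB3+/- and 1.13 ± 0.42 (SD, n = 4) in CPEB3-/- embryos, which did not differ beyond the spread (exact permutation p = 0.222, adjusted p = 0.222).

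**Figure D2:**
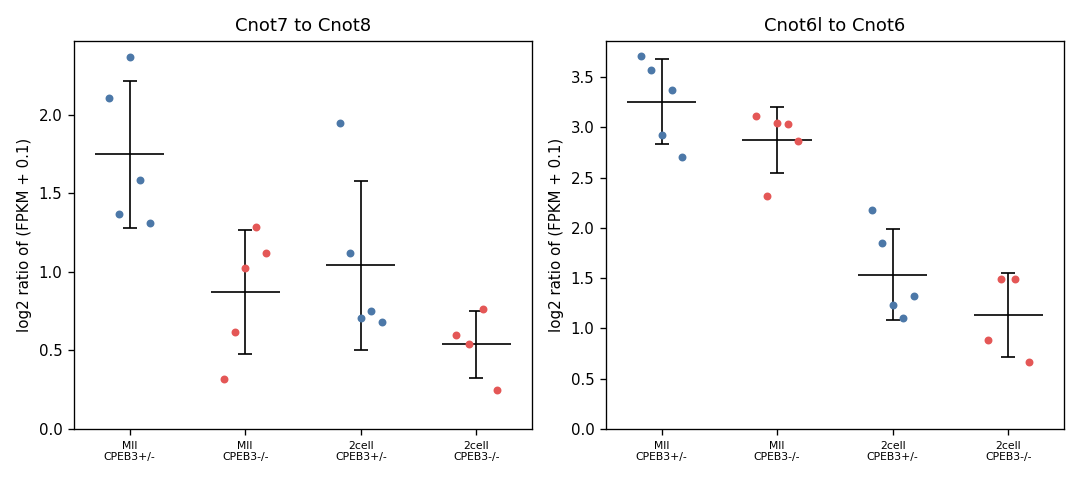
Log2 ratio of Cnot7 to Cnot8 (left) and of Cnot6l to Cnot6 (right), from FPKM + 0.1 in the same library (vertical axis, starting at 0), for every library of the 4 groups with mean and SD in black. Only the ratio of Cnot7 to Cnot8 in MII oocytes separates the libraries labelled CPEB3-/- (0.32 to 1.28) from the CPEB3+/- libraries (1.31 to 2.37).

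Cnot3 (chr7:3645268-3661109, plus strand) was the subunit called higher in CPEB3-/- 2cell embryos. It was at 0.891, 0.898, 1.08, 0.617 and 0.991 FPKM in CPEB3+/- libraries A to E and at 1.71, 1.67, 1.78 and 1.22 FPKM in CPEB3-/- libraries A to D. All 4 CPEB3-/- libraries were above all 5 CPEB3+/- libraries. The log2 fold change was 0.73 (SE 0.18, 1.66-fold, limma adjusted p = 0.0218, exact permutation p = 0.0159). The call was lost without CPEB3-/- library A, B or C (0.72, 0.71 and 0.68, adjusted p = 0.053, 0.0564 and 0.06). It was also lost with a pseudocount of 1, the GC trend removed or a replicate block, as given below. The rise was larger in 2cell embryos than in MII oocytes by 0.61 on the log2 scale (SE 0.18, limma adjusted p = 0.0412), and 7.76% of all genes passed that test, 3.62% in that direction and 4.14% in the other (571 and 654 genes, or 802 and 416 with sum scaling). Without adjustment no other subunit passed a limma p of 0.05 for that difference, beside 23.2% of all genes. That second call held without CPEB3-/- MII library A, CPEB3+/- 2cell library A or E, or CPEB3-/- 2cell library D, and was lost without any of the other 15 libraries (differences of 0.50 to 0.73 over all 19, adjusted p of 0.0159 to 0.126). Exons of Cnot3 share 433 bases with Leng1 on the opposite strand, and the library kit does not keep strand, so that reads of the shared bases cannot be told apart. Leng1 had log2 fold changes of 0.92 (SE 0.21) in MII oocytes and 0.48 (SE 0.13) in 2cell embryos between the same libraries.

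None of the other subunits was called in 2cell embryos. Cnot1 averaged 0.469 ± 0.0602 (SD, n = 5) and 0.351 ± 0.0887 FPKM (SD, n = 4) with a log2 fold change of -0.39 (SE 0.19, limma adjusted p = 0.178). Cnot2 had -0.18 (SE 0.21), Cnot9 0.29 (SE 0.19), Cnot10 0.25 (SE 0.16) and Cnot11 0.10 (SE 0.23), all with overlapping groups and limma adjusted p values from 0.308 to 0.808. Cnot2 was thus above the CPEB3+/- mean in CPEB3-/- MII oocytes and below it in CPEB3-/- 2cell embryos, and neither difference passed the test.

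**Figure D3:**
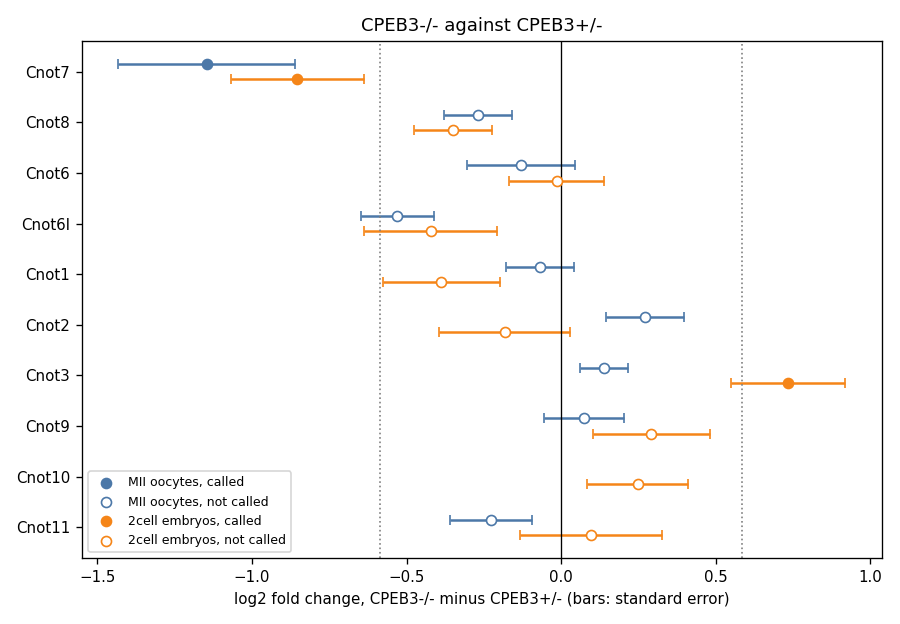
Fitted log2 fold change of each subunit, CPEB3-/- minus CPEB3+/- (horizontal axis), with its standard error, in MII oocytes (blue) and 2cell embryos (orange). Filled circles passed the test and the 1.5-fold threshold (dotted lines), which were Cnot7 at both stages and Cnot3 in 2cell embryos, and Cnot10 was not fitted in MII oocytes.

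Composition of the transcripts moved with the genotype difference. Over genes, the log2 fold change correlated with the GC content of the gene (Pearson r = 0.316 over 10442 genes in MII oocytes and 0.366 over 13932 genes in 2cell embryos), where genes share the libraries and are not replicates. Among all genes Cnot6l was at percentile 2.82 and Cnot7 at percentile 9.75 of GC content, while Cnot3 was at percentile 89.8. The paralogs Cnot6 and Cnot8 were at percentiles 6.97 and 48.6, and the paralog ratios were not recomputed without this trend. With a GC trend removed from each library, Cnot7 kept its call in MII oocytes (-0.902, adjusted p = 0.0146) but not in 2cell embryos (-0.50, adjusted p = 0.11). Cnot3 in 2cell embryos was then at 0.41 (adjusted p = 0.176) and Cnot6l in MII oocytes at -0.18 (adjusted p = 0.219), each by limma. The summed level of the 10 oocyte markers was lower in CPEB3-/- MII oocytes as well, with 1764 to 1845 FPKM in control and 1039 to 1422 FPKM in CPEB3-/- MII oocytes, and 1000 to 1155 and 711 to 1153 FPKM in 2cell embryos, where the ranges overlapped. In MII oocytes 7 of the 10 markers had a lower mean in CPEB3-/-, with the largest differences in FPKM for Dppa3 (962 and 658 FPKM) and Mos (214 and 67.5 FPKM), while the means of Zp1 (5.43 and 7.2 FPKM), Zp3 (6.8 and 8.54 FPKM) and Nlrp5 (2.66 and 2.93 FPKM) were higher in CPEB3-/-. Among the 8 2cell markers, Zscan4d averaged 1.15 and 9.88 FPKM, Zscan4c 0.544 and 3.37 FPKM and Usp17lc 0.0793 and 0.365 FPKM in the same MII groups. Tcstv1 (32.7 and 35.1 FPKM), Tcstv3 (5.85 and 6.64 FPKM) and Tdpoz4 (0.0441 and 0.0502 FPKM) were higher in CPEB3-/- by a smaller factor. The means of Gm5662 (0.409 and 0.403 FPKM) and Zfp352 (0.071 and 0.0613 FPKM) were lower. The part of either marker list in the subunit differences was not tested.

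Levels can be set between subunits only per transcript length, since the deposited FPKM were divided by the whole gene with its introns. Rescaled to the length of the longest protein-coding transcript, Cnot7 stood first in all 4 groups, at 163 ± 39.6 in control and 80.03 ± 26.2 FPKM in CPEB3-/- MII oocytes (SD, n = 5 each) and at 135 ± 35.4 (SD, n = 5) and 75.9 ± 12.7 FPKM (SD, n = 4) in 2cell embryos. In CPEB3-/- MII oocytes its range overlapped that of Cnot9 (59.4 ± 6.32 FPKM), and by the length of the merged exons Cnot9 came first there. In the other 3 groups Cnot7 lay apart from the next subunit. In CPEB3+/- MII oocytes Cnot6l (54.0), Cnot9 (53.8), Cnot3 (43.7) and Cnot8 (41.4 FPKM) followed with overlapping neighbours, then came Cnot2 (18.6), Cnot11 (10.5) and Cnot6 (3.12 FPKM), each apart from the next. The scaffold Cnot1 (1.80 FPKM) and Cnot10 (1.38 FPKM) were lowest and overlapped. In CPEB3+/- 2cell embryos Cnot8 (56.6 FPKM) was next to Cnot7, with Cnot2 (21.1), Cnot6l (20.2) and Cnot9 (15.03 FPKM) behind it, and the other 5 subunits lay between 2.41 and 5.97 FPKM.

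The summed level of the 10 subunits on that scale was 391 ± 24.9 FPKM for CPEB3+/- and 308 ± 23.8 FPKM for CPEB3-/- MII oocytes (SD, n = 5 each), with ranges of 351 to 414 and 279 to 340 FPKM. In 2cell embryos it was 270 ± 34.9 (SD, n = 5) and 202 ± 23.8 FPKM (SD, n = 4). These sums are descriptions, and Cnot7 makes up much of each. Its share was 41.3 ± 8.02% in CPEB3+/- and 25.6 ± 6.81% in CPEB3-/- MII oocytes, and 49.4 ± 6.21% and 37.4 ± 2.77% in 2cell embryos. Rescaling to the length of the merged exons, an alternative chosen after the data were seen, gave 33.0% and 19.8% in MII oocytes and 40.0% and 29.34% in 2cell embryos. On the transcript scale the ratio of Cnot7 to Cnot8 was 4.03 ± 1.37 and 2.16 ± 0.56 in CPEB3+/- and CPEB3-/- MII oocytes, and that of Cnot6l to Cnot6 was 18.6 ± 5.97 and 13.9 ± 3.13 (SD, n = 5 each).

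**Figure D4:**
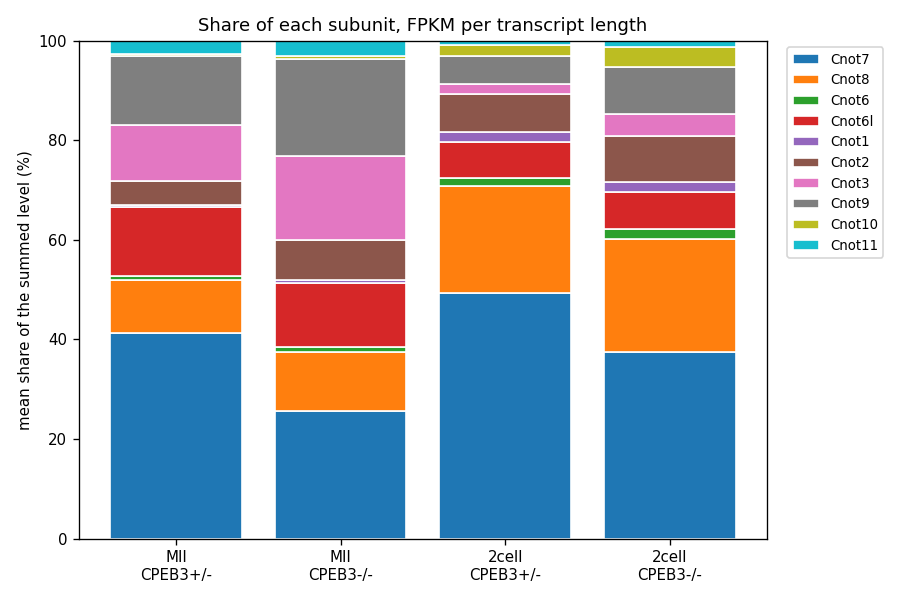
Mean share (percent, vertical axis) of each subunit in the summed level of the 10 subunits, from FPKM rescaled to transcript length, in the 4 groups. Cnot7 takes the largest share in every group, 41.3% and 25.6% in CPEB3+/- and CPEB3-/- MII oocytes and 49.4% and 37.4% in 2cell embryos, and the share of Cnot8 is larger in 2cell embryos than in MII oocytes.

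MII oocytes and 2cell embryos were compared within each genotype. FPKM are shares of a library and not amounts per cell, so that less mRNA of a gene and more of the rest cannot be told apart. In CPEB3+/- libraries 2 subunits were called higher in 2cell embryos (Cnot1 and Cnot10) and 4 lower (Cnot3, Cnot6l, Cnot9 and Cnot11). All 6 were called in the same direction in CPEB3-/- libraries. Calls were common in this comparison, at 66.4% of all genes tested in CPEB3+/- (38.2% higher, 28.2% lower) and 65.2% in CPEB3-/- (38.2% higher, 27% lower), and the median log2 fold change was -0.27 and -0.33 over the subunits against 0.21 and 0.21 over all genes. With sum scaling the calls were 4976 higher and 5931 lower in CPEB3+/-, in place of 6036 and 4452, and the median over all genes was -0.17 in CPEB3+/- and -0.07 in CPEB3-/-. In the 2 blood markers that the table holds, Hba-a1 and Hba-a2 of 6 listed, the summed level was at most 0.428 FPKM in MII oocytes and 46.2 to 146 FPKM in 2cell embryos, and its part in these differences was not tested.

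Cnot3 fell most, from 7.78 ± 0.79 to 0.895 ± 0.173 FPKM in CPEB3+/- (SD, n = 5 each), a log2 fold change of -3.22 (SE 0.12, limma adjusted p = 5.04e-14). In CPEB3-/- it went from 9.19 ± 1.07 (SD, n = 5) to 1.60 ± 0.26 FPKM (SD, n = 4), or -2.61 (SE 0.13). The 10 MII and 9 2cell libraries did not overlap, with 6.58 FPKM as the lowest of the former and 1.78 FPKM as the highest of the latter. Cnot11 changed by -2.19 (SE 0.17) in CPEB3+/- and -1.85 (SE 0.18) in CPEB3-/-. Cnot9 changed by -1.998 (SE 0.15) and -1.76 (SE 0.16). For the nuclease Cnot6l the values were -1.61 (SE 0.16) and -1.48 (SE 0.17). All limma adjusted p values of these 4 subunits were at or below 2.64e-07, and MII and 2cell libraries of the same genotype did not overlap.

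The nuclease Cnot7 was not called between the stages (-0.49, SE 0.26, in CPEB3+/- and -0.18, SE 0.28, in CPEB3-/-, limma adjusted p = 0.0942 and 0.572) except that it was called lower in CPEB3+/- without CPEB3+/- MII library E (-0.65) or 2cell library A (-0.63), and in both genotypes with sum scaling (-1.05 in CPEB3+/- and -0.59 in CPEB3-/-). Cnot8 was not called either (0.22, SE 0.11, and 0.16, SE 0.12), and its estimate was below 0 with sum scaling (-0.33 and -0.25). The scaffold Cnot1 was higher in 2cell embryos, by 0.90 (SE 0.14) in CPEB3+/- and 0.60 (SE 0.14) in CPEB3-/- on the log2 scale. In CPEB3-/- that was 1.52-fold, just past the threshold, and 6 of the 19 libraries, left out in turn, ended the call (CPEB3-/- MII B and E, CPEB3+/- 2cell C, and CPEB3-/- 2cell A, B and D, lowest value 0.54). Cnot1 was not called in either genotype with sum scaling or a pseudocount of 1, nor in CPEB3-/- with no filter on low values. Cnot10 was higher by 1.15 (SE 0.12) and 1.13 (SE 0.13), from MII levels near the filter, and was not called with a pseudocount of 1. Cnot2 and Cnot6 were not called in either genotype, although Cnot2 in CPEB3-/- passed the p threshold (-0.48, SE 0.16, limma adjusted p = 0.0133). In CPEB3-/- Cnot2 was called lower with sum scaling (-0.849, adjusted p = 0.00013) and without CPEB3-/- 2cell library B (-0.60, adjusted p = 0.00357), and Cnot6 was called higher with the GC trend removed (0.592, adjusted p = 0.00394), each by limma.

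**Figure D5:**
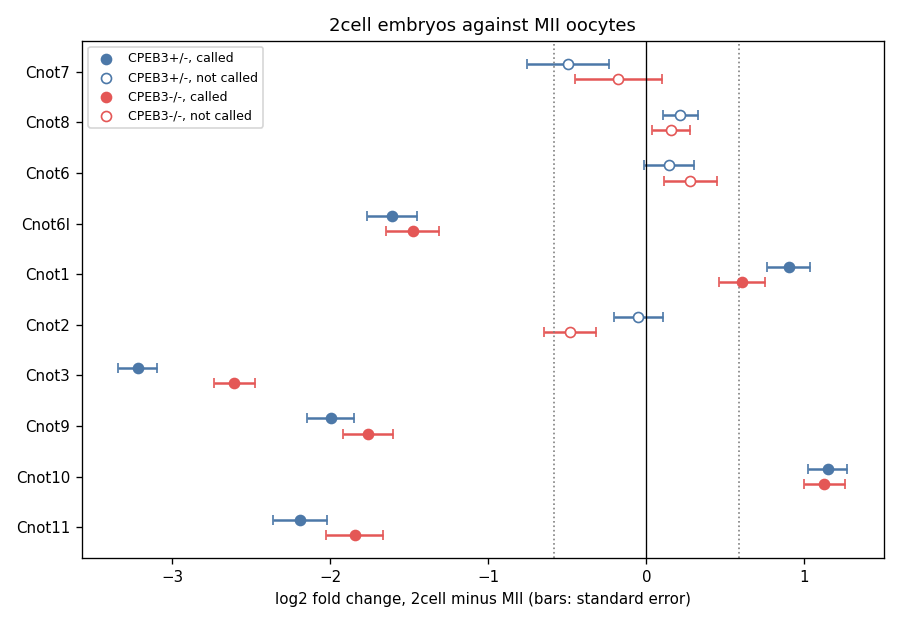
Fitted log2 fold change of each subunit, 2cell embryos minus MII oocytes (horizontal axis), with its standard error, in CPEB3+/- (blue) and CPEB3-/- (red) libraries. Filled circles passed the test and the 1.5-fold threshold (dotted lines), and the 6 called subunits are the same in both genotypes, with Cnot3 falling most.

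The genes whose profile over the 19 libraries was most like that of Cnot7, by the root mean square difference of centred log2 values among 5279 genes averaging at least 1 FPKM, were Morf4l2 (0.17), Brdt (0.18) and Fpgt (0.22). The values of Cnot7 themselves deviated from their mean by 0.66 on that measure. Morf4l2 averaged 13.8 and 7.49 FPKM in CPEB3+/- and CPEB3-/- MII oocytes and 10.3 and 6.88 FPKM in 2cell embryos. For Cnot6l, whose own deviation was 0.83, the nearest genes were Unc50 (0.19), Snx16 (0.20) and Asf1a (0.20). Unc50 averaged 57.8 and 50.8 FPKM in MII oocytes and 23.0 and 17.35 FPKM in 2cell embryos. Snx16 averaged 4.49 and 3.36 FPKM in MII oocytes and 1.51 and 1.31 FPKM in 2cell embryos, and Asf1a 16.3 and 14.7 FPKM and 6.78 and 5.195 FPKM.

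Deadenylation can also be carried out by enzymes outside the complex, such as Pan2-Pan3, Parn and Noct, and is followed by decapping and 5′ to 3′ decay. Over all genes 12.9% were called in MII oocytes, where 37.1% had an unadjusted limma p under 0.05, and 18.1% in 2cell embryos. Of 9 other deadenylases, 7 were tested in MII oocytes and 0 called by limma (3 higher and 1 lower at an unadjusted p under 0.05, and 1 called without CPEB3+/- library D or E), and 9 were tested in 2cell embryos with 2 called higher and 1 lower. Pan2, the catalytic subunit of the Pan2-Pan3 deadenylase, averaged 1.38 FPKM in CPEB3+/- and 2.42 FPKM in CPEB3-/- 2cell embryos (log2 fold change 0.71, SE 0.16, limma adjusted p = 0.0133) with no overlap. Its partner Pan3 averaged 0.246 and 0.436 FPKM (0.60, SE 0.16, limma adjusted p = 0.0294), also with no overlap. Toe1, a nuclear deadenylase, averaged 0.380 FPKM in CPEB3+/- and 0.112 FPKM in CPEB3-/- 2cell embryos (-1.25, SE 0.36, limma adjusted p = 0.0361), and its groups overlapped. Leaving out any of the 9 libraries lowered the count of 3, to 1 without CPEB3+/- library D or E or CPEB3-/- library B or C and to 2 without each of the others. Of 13 genes of decapping and 5′ decay, 11 were tested in MII oocytes and 0 called by limma (3 higher and 0 lower at an unadjusted p under 0.05, and up to 2 called without CPEB3+/- library B or CPEB3-/- library D or E), and 10 in 2cell embryos with 2 called higher. Edc4, which helps to assemble the decapping enzyme, averaged 0.258 and 0.702 FPKM (1.13, SE 0.21, adjusted p = 0.0074 by limma), again with no overlap. Edc4 stayed called without any 1 of the 9 libraries, and the other call, of Dcp1a, was lost without CPEB3+/- library B, C, D or E or CPEB3-/- library B, C or D (without CPEB3-/- library B, Lsm14b was called in its place). On log2(FPKM + 1) these 5 calls in 2cell embryos fell under the 1.5-fold threshold, at 0.49 for Pan2, 0.19 for Pan3, -0.31 for Toe1, 0.42 for Edc4 and 0.37 for Dcp1a, and with a replicate block none of the 5 passed limma (adjusted p from 0.0686 to 0.203). The calls of Pan3, Toe1 and Dcp1a were also lost with no filter on low values, and that of Toe1 with sum scaling.

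Of 28 proteins that recruit the complex to mRNA, 20 were tested in MII oocytes, with 1 called higher and 1 lower, and 26 in 2cell embryos, with 5 called higher and 1 lower. Over all genes 5.61% were called higher and 7.3% lower in MII oocytes, and 8.53% and 9.54% in 2cell embryos. Ythdf2, a reader of m6A that brings the complex to methylated mRNAs, averaged 2.27 FPKM in control and 3.90 FPKM in CPEB3-/- MII oocytes (0.66, SE 0.08, limma adjusted p = 0.000586). The RNA-binding ubiquitin ligase Mex3c averaged 0.494 and 0.206 FPKM there (-1.03, SE 0.15, limma adjusted p = 0.00189). In 2cell embryos Mex3a averaged 0.167 and 0.404 FPKM (0.89, SE 0.18) and Mex3d 0.0983 and 0.311 FPKM (1.06, SE 0.22), with limma adjusted p = 0.0085 and 0.0103. None of these 4 overlapped between the groups, but they were named for their low adjusted p, so that this is no further evidence. The share of all genes without overlap was not counted. On log2(FPKM + 1) all 4 fell under the 1.5-fold threshold, at 0.51 for Ythdf2, -0.33 for Mex3c, 0.26 for Mex3a and 0.25 for Mex3d. Mex3d was also not called with the GC trend removed (0.57, limma adjusted p = 0.0559), nor were Mex3a and Mex3d with a replicate block (limma adjusted p = 0.084 and 0.0894). The median log2 fold changes in MII oocytes were 0.25 for the other deadenylases, 0.03 for decapping and 0.19 for the recruiters, and 0.15, 0.09 and 0.17 in 2cell embryos.

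Between the stages, 8 of 11 tested decapping genes were called lower in 2cell embryos of CPEB3+/- and 7 of 11 in CPEB3-/-, and 0 were called higher by limma (0 also at an unadjusted p under 0.05, beside 42.4% and 42.1% of all genes), while over all genes 28.2% and 27% were called lower. Dcp1a, a cofactor of the decapping enzyme, averaged 4.34 FPKM in MII oocytes and 0.781 FPKM in 2cell embryos of CPEB3+/- females (-2.55, SE 0.13), and Dcp2, the enzyme itself, 4.86 and 2.45 FPKM (-1.18, SE 0.09). Edc4 averaged 2.57 and 0.258 FPKM (-3.03, SE 0.22) and Lsm14b, a component of mRNA storage particles, 12.2 and 1.65 FPKM (-3.00, SE 0.22). Of the 27 recruiters tested, 12 rose and 5 fell in CPEB3+/-, and 13 rose and 6 fell in CPEB3-/-, while over all genes 38.2% were called higher in each genotype. The recruiter Zfp36l2, which binds AU-rich elements, rose from 0.374 to 7.80 FPKM in CPEB3+/- (3.85, SE 0.20), and Cnot4, a ubiquitin ligase that associates with the complex, fell from 2.19 to 0.361 FPKM (-2.52, SE 0.11). Of the 9 other deadenylases, 3 rose and 2 fell in CPEB3+/-, beside the same shares over all genes. In CPEB3-/- 3 rose and 1 fell, and without CPEB3-/- 2cell library A 2 of the 9 were called. The circadian deadenylase Noct fell from 6.96 FPKM in MII oocytes to 2.79 FPKM in 2cell embryos of CPEB3-/- females (-1.45, SE 0.16). Pnldc1, a relative of Parn, rose there from 0.0367 to 0.238 FPKM (1.17, SE 0.18) and the mitochondrial enzyme Pde12 from 1.66 to 3.02 FPKM (0.66, SE 0.18), both under the 1.5-fold threshold on log2(FPKM + 1) at 0.23 and 0.48, and Pde12 was not called with sum scaling (0.27). The rise of Toe1 in CPEB3-/-, from 0.0217 to 0.112 FPKM (0.66, SE 0.28, limma adjusted p = 0.0456), was lost on that scale (0.11), with sum scaling, with no filter on low values, with a replicate block and when any of 13 of the 19 libraries was left out (0.35 to 0.81 over all 19).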

How the data were processed

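RNA was measured in pools of oocytes or embryos with the SMART-seq v4 kit, which primes on the poly(A) tail, so that tail length can affect capture, and does not keep strand. Per the labels, the authors trimmed reads with Trim Galore 0.4.1 and aligned them with HISAT2 2.0.5 to GRCm38. The deposited values are FPKM per gene, although the table is named as raw counts. The sources disagree on the sequencer and on the number of libraries per group, and the labels' groups were used.

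The FPKM had been divided by the whole length of the gene, introns included. Among 2091 genes with 1 transcript and a gene length over 5 times the exon length, 88.6 to 92.1% of low values per library lay within 0.1 of a whole fragment by gene length, against 22.2 to 25.7% by exon length and 20% by chance. In 87.4% of 198 pairs a gene inside an intron had more fragments than its host, which was read as fragments being counted over exons. The sources used here do not state this, and the rescaling to transcript length rests on that reading. Of all values, 1.07% were above 0 but below 1e-06, so that some fragments were assigned by estimation. Levels between genes were compared after rescaling to the longest protein-coding transcript of GENCODE vM21, which covered 99% of the 25891 genes. No 2 libraries were identical.

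Each library was scaled by the trimmed mean of its log ratios to a reference library (30% of log ratios and 5% of levels trimmed at each end). The reference was the library with the upper quartile nearest the mean upper quartile. Genes with at least 0.1 FPKM in 5 libraries (MII) or 4 (2cell, and all libraries) were kept. Then limma 3.58.1 with trend (R 4.3.3) was fitted on log2(FPKM + 0.1), which understates changes of low genes, with Benjamini-Hochberg adjustment over all genes. The difference between stages of the genotype effect, and the stage effects, came from 1 fit of the 19 libraries. Exact permutation tests (two-sided) used Python 3.11.15 and scipy 1.17.1. The 4 tests of paralog ratios were adjusted together, and the 20 tests of levels were not adjusted. All 10 subunits were named. From the pathway lists, called genes were named starting from the lowest adjusted p, at most 4 per list. The 3 nearest genes to Cnot7 and to Cnot6l were named. The members and lists were chosen with earlier results of these data known. The fits were tested on simulated data. Alternatives were the scaling, pseudocount, filter, GC trend, replicate block, libraries in the fit and leaving out each library.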

Additional observations from a re-analysis of the deposited data

Results flagged for a closer look

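In 4 of the 40 groups of libraries tested (10 subunits in 4 groups) 1 library lay farther from the rest than Dixon's critical value allows, and chance gives that in about 1 of 20 groups. These were Cnot2 in CPEB3+/- MII library E, at 0.457 FPKM (nearest library 0.546), Cnot6l in CPEB3-/- MII library B, at 3.005 FPKM (nearest 3.69), Cnot9 in CPEB3+/- 2cell library C, at 2.74 FPKM (nearest 1.95), and Cnot11 in CPEB3+/- 2cell library A, at 1.06 FPKM (nearest 0.678).

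The genotype difference itself differed between the stages for 4 genes of the complex and its pathway lists, each tested as an interaction in limma. Of the genes tested these were 1 of 10 subunits, 1 of 9 other deadenylases, 0 of 11 decapping genes (0 also at an unadjusted p under 0.05) and 2 of 27 recruiters, beside 7.76% of all genes (23.2% at an unadjusted p under 0.05). Cnot3 was higher in CPEB3-/- by 0.61 more in 2cell embryos than in MII oocytes on the log2 scale (SE 0.18, adjusted p = 0.0412). This call was lost when any of 15 of the 19 libraries was left out in turn (0.50 to 0.73), and with values as deposited, a pseudocount of 1, no filter on low values or the GC trend removed. Mex3d was higher by 0.99 more (SE 0.24, adjusted p = 0.016), and by 0.23, under the fold threshold, with a pseudocount of 1. Ythdf2, higher in CPEB3-/- MII oocytes, differed by -0.62 (SE 0.17, adjusted p = 0.0283), and this call was lost without CPEB3+/- 2cell library E or CPEB3-/- 2cell library B, and with sum scaling, a pseudocount of 1, a filter at 1 FPKM, the GC trend removed or a replicate block. Toe1 differed by -1.365 (SE 0.39, adjusted p = 0.0383), a call that was lost when any of 14 of the 19 libraries was left out in turn, and with sum scaling, a pseudocount of 1 or a replicate block.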

How the results depend on the processing

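Of 2288 values recomputed under alternatives, 1993 kept their direction and side of the threshold, 156 no longer passed it, 11 newly passed it, 99 moved and 29 changed sign. In MII oocytes the 1 call among the subunits was lost with a replicate block (0 called, Cnot7 adjusted p = 0.0614). In 2cell embryos the 2 calls became 1 with sum scaling (Cnot3) or a pseudocount of 1 (Cnot7), and 0 with the GC trend removed or the replicate block. The 1 call of a difference between the stages became 0 with values as deposited, a pseudocount of 1, no filter on low values or the GC trend removed. Leaving out 1 library gave 1 to 2 calls in MII oocytes, 1 to 2 in 2cell embryos and 0 to 1 between the stages. The exact tests of levels counted 4 subunits in place of 2 in 2cell embryos after scaling. The ratio of Cnot7 to Cnot8 in MII oocytes was no longer past the threshold with the replicate block (exact permutation p = 0.0625, the smallest possible, adjusted p = 0.25 in place of 0.0317), where its difference is -0.8767 in both by construction, and ranged from -0.9859 to -0.7222 without 1 library. The causes of these changes were not tested, beyond the fewer libraries or splits.

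Whether the library letters pair the samples is not stated. The deviations of same-letter libraries correlated at -0.175 to 0.12 (MII) and -0.069 to 0.036 (2cell). Those of libraries with different letters were not computed for comparison. With the letter as a block, the counts over all genes were 825 in place of 1357 (MII) and 369 in place of 2538 (2cell). A pseudocount of 1 gave 481, 1162, 798, 5282 and 5270 calls, and a filter at 1 FPKM 774, 1496, 760, 5289 and 5135, in MII, 2cell, the difference between the stages, and the stage comparison in CPEB3+/- and CPEB3-/-, in place of 1357, 2538, 1225, 10488 and 10285.

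Estimates that changed sign were all of subunits not called in that comparison (log2 scale). With sum scaling these were, in MII oocytes, Cnot1 (0.04502) and Cnot6 (0.01125), in 2cell embryos Cnot2 (0.1074) and Cnot6 (0.2745), and between the stages Cnot6 (-0.315 in CPEB3+/-, -0.06468 in CPEB3-/-) and Cnot8 (-0.3346, -0.2534). With the GC trend removed they were, in MII oocytes, Cnot3 (-0.08984) and Cnot6 (0.1431), in 2cell embryos Cnot2 (0.01398), Cnot6 (0.3776), Cnot6l (0.05851) and Cnot11 (-0.01907), and between the stages Cnot2 in CPEB3+/- (0.2124) and Cnot7 in CPEB3-/- (0.1882). With values as deposited they were Cnot6 in 2cell embryos (0.02392) and Cnot2 between the stages in CPEB3+/- (0.1467). Cnot6 in 2cell embryos was at 0.01827 with the replicate block, and at -0.009147 FPKM as a difference of scaled means. Without 1 library, Cnot9 in MII oocytes ranged from -2.37e-05 to 0.1484, Cnot6 and Cnot11 in 2cell embryos from -0.06998 to 0.03638 and from -0.02874 to 0.2476, and Cnot2 between the stages in CPEB3+/- from -0.1239 to 0.03152.

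Depth limited Cnot10 most, with an estimated 60.7 to 169 fragments per MII library against 3163 to 14692 for Cnot7 over all libraries.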
